A study of Canis lupus familiaris and Dasypus novemcinctus and Ornithorhynchus anatinus with 3 samples.

Results

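HOX cluster genes were taken as every gene whose symbol is HOX, a cluster letter from A to D and a number from 1 to 13, in the read-count tables of pregnant endometrium, the lining of the uterus, from dog, armadillo and platypus. In all, 38 symbols met this rule: 32 of 19290 genes in the dog table, 20 of 12335 in the armadillo table and 27 of 18481 in the platypus table. Dog (Canis lupus familiaris) and armadillo are placental mammals, or eutherians, and platypus is an egg-laying mammal. The 3 groups differ by species, and all share the label of pregnancy. The labels give no treatment, genotype, age, stage of pregnancy or number of animals. There was 1 messenger RNA library per species, so no value has an error between animals and differences are described without a test. Levels are given as CPM, the reads of a gene per 1000000 reads of the library. The library sum was 13625465 reads for dog, 13218476 for armadillo and 2243556 for platypus. Values in brackets after a level or a ratio are exact 95% intervals, which cover counting error only. CPM is not corrected for gene length, so a ratio between species also depends on the gene model of each species. A count of 0 allows up to 3 reads, which is 0.220 CPM for dog, 0.227 for armadillo and 1.34 for platypus.

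HOX genes encode transcription factors with a homeodomain, and in mammals they lie in 4 clusters on different chromosomes. Within a cluster the genes are numbered by paralog group, and in the embryo the low numbers act towards the head and the high numbers towards the tail. The uterus, oviduct, cervix and upper vagina form from the Müllerian duct, and genes at the high end of the HOXA cluster are known to pattern this duct and to stay active in the adult uterus. HOXA10 and HOXA11 are the best known of these, and in mice the loss of either impairs fertility through the uterus.

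The tables did not list the same members. Of the 38 symbols, 13 were in all 3 tables, 15 in 2 and 10 in only 1. The dog table did not list HOXA4, HOXA9, HOXA10, HOXB3, HOXD1 or HOXD13, and HOXA11 was listed for neither armadillo nor platypus. The armadillo table holds only genes with at least 1 read, so the 18 members without a row there were not taken as 0. A 0 in the other tables was also read with care, since genes that every cell uses stood at 0 in them: EEF2 and RPL11 in dog and RPS15 and RPS25 in platypus. For this reason no ratio is given against a member listed at 0. No HOX gene stood under a UniProt HX entry name, and none was recovered from a sequence accession. In the dog RefSeq gene table (assembly UU_Cfam_GSD_1.0, which may not be the build of the counts) 15 of 38 HOX genes overlap another HOX gene, so reads of such neighbours may not be cleanly split. They include HOXA3, HOXA5 and HOXB6, counted below as higher in dog than in armadillo. HOXB5, HOXB8 and HOXC6, counted below as higher in platypus, are also among them, and no HOXD gene is.

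Of the members, 19 reached 5 CPM in at least 1 library and the other 19 did not. In dog 9 of 32 listed members (28.1%) stood at 0, against 21.8% of all dog genes. In platypus 9 of 27 (33.3%) did, against 42.4% of all platypus genes. At 2 CPM or more were 17 of 32 members in dog (53.1%, against 58.3% of all listed genes), 11 of 20 in armadillo (55.0% against 81.5%) and 16 of 27 in platypus (59.3% against 45.9%). In platypus 2 CPM is 4.49 reads. Summed over their listed members, HOX genes took 204 CPM in dog (196 to 212), 146 in armadillo (139 to 152) and 475 in platypus (447 to 504).

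**Figure D1:**
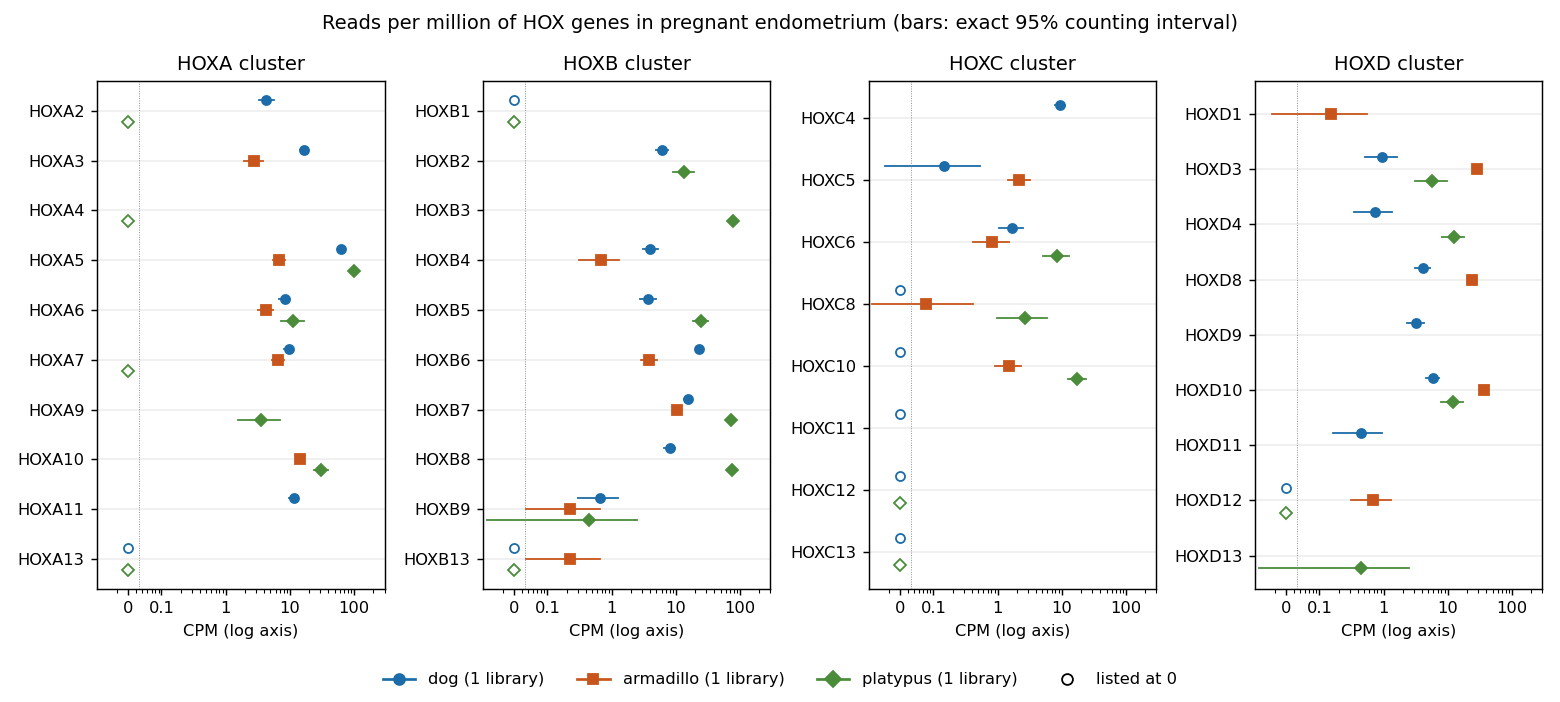
CPM (log axis) of 37 HOX genes in the dog, armadillo and platypus libraries, 1 point per library with its exact 95% counting interval, by cluster and in order of paralog group. Open symbols left of the dotted line are genes listed at 0, and a gene with no symbol was not in that table. HOXA5 stands at 102 CPM in platypus, 63.6 in dog and 6.81 in armadillo, and HOXD3, HOXD8 and HOXD10 are higher in armadillo than in dog.

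Reads of HOXA10 and HOXA11 were found in each library whose table lists them. HOXA10, which is needed for the uterus to accept an embryo in mice, had 189 reads or 14.3 CPM in armadillo (12.3 to 16.5) and 69 reads or 30.8 CPM in platypus (23.9 to 38.9). It was thus 2.15-fold higher in platypus (1.61 to 2.85), beyond counting error and below the 4-fold limit used here. HOXA11, which acts in the uterine stroma and is a partner of FOXO1 in decidual stromal cells, had 157 reads or 11.5 CPM in dog (9.79 to 13.5). With HOXA10 missing from the dog table and HOXA11 from the other tables, these genes could not be compared across all 3 species. HOXA9, which marks the oviduct in mice, was listed in platypus only, with 8 reads or 3.57 CPM (1.54 to 7.03). HOXA13, which acts at the lower end of the tract and in the limbs and hindgut, stood at 0 in dog and in platypus.

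The platypus identifiers of this cluster run without a gap, from SKAP2 (ENSOANG00000009162) through the HOXA genes to EVX1 and HIBADH, the genes that flank the HOXA cluster in other mammals. The run holds 14 rows. Between HOXA10 (ENSOANG00000009171) and HOXA13 (ENSOANG00000009173) lies a row named only by the UniProt entry Q6B6N7_ORNAN, with 112 reads or 49.9 CPM (41.1 to 60.1). The row named HOXB3 (ENSOANG00000009165) lies between HOXA2 and HOXA4, where no row named HOXA3 was listed. The table does not pair these rows with any other symbol, so Q6B6N7_ORNAN was counted as no member and HOXB3 is given under the name in the table.

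The listed members of paralog groups 12 and 13 had almost no reads. HOXA13, HOXC12, HOXC13 and HOXD13 had no row in armadillo, and HOXD13 had none in dog, so their levels there are not known. Over the listed rows of HOXA13, HOXB13, HOXC13 and HOXD13 the largest count was 3 reads, for HOXB13 (a prostate gene) in armadillo. HOXD13, a gene of the digits and external genitalia, had 1 read in platypus. HOXC12 was at 0 in dog and platypus, and HOXD12 had 9 reads in armadillo (0.681 CPM, 0.311 to 1.29) and 0 in dog and platypus. In dog the levels above these few reads reached up to paralog group 11. The armadillo and platypus tables list no gene of group 11 by name, and their named members reached up to group 10. The 112 platypus reads of Q6B6N7_ORNAN, the row with no HOX symbol between HOXA10 and HOXA13, are not among these members, so where the platypus levels end within HOXA cannot be told.

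Among the other HOXA genes, HOXA5, a gene with roles in lung and mammary development, had 867 reads or 63.6 CPM in dog (59.5 to 68.0), 90 reads or 6.81 CPM in armadillo (5.47 to 8.37) and 229 reads or 102 CPM in platypus (89.3 to 116). Armadillo stood apart, 9.35-fold below dog (7.52 to 11.7) and 15.0-fold below platypus (11.7 to 19.4). HOXA3, which acts in the thymus and the throat, showed the same order between the eutherians, with 16.7 CPM in dog (14.6 to 19.0) and 2.72 in armadillo (1.91 to 3.77). HOXA6 was closer in the 3 libraries, at 8.37 CPM in dog (6.90 to 10.1), 4.24 in armadillo (3.20 to 5.50) and 11.1 in platypus (7.21 to 16.4). HOXA7 stood at 9.61 CPM in dog (8.04 to 11.4) and 6.51 in armadillo (5.204 to 8.03) and was listed at 0 in platypus. HOXA2 had 4.33 CPM in dog and 0 reads in platypus, and HOXA4 stood at 0 in platypus.

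HOXB2, HOXB5, HOXB7 and HOXB8 all had a higher CPM in platypus than in dog. HOXB7 had 213 reads or 15.6 CPM in dog (13.6 to 17.9), 140 reads or 10.6 CPM in armadillo (8.91 to 12.5) and 161 reads or 71.8 CPM in platypus (61.1 to 83.7). It was 4.59-fold (3.72 to 5.66) higher in platypus than in dog and 6.78-fold (5.37 to 8.56) higher than in armadillo. HOXB8, known from blood progenitors and microglia, stood at 8.0 CPM in dog (6.57 to 9.65) and 74.9 in platypus (64.0 to 87.1). HOXB5 stood at 3.74 CPM in dog (2.79 to 4.92) and 24.5 in platypus (18.5 to 31.9). HOXB2, which patterns the hindbrain, had 6.09 CPM in dog (4.85 to 7.55) and 13.4 in platypus (9.02 to 19.1), below the 4-fold limit. The platypus row named HOXB3 had 178 reads or 79.3 CPM (68.1 to 91.9).

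HOXB6 could be set side by side only in the eutherians, with 311 reads or 22.8 CPM in dog (20.4 to 25.5) and 51 reads or 3.86 CPM in armadillo (2.87 to 5.07). HOXB4, a gene of blood stem cells, followed the same direction at lower levels, with 4.04 CPM in dog and 0.681 in armadillo (9 reads). Listed members at both ends of the cluster were near 0. HOXB1 had no read in dog or platypus and no row in armadillo, and HOXB9 had 9 reads for dog, 3 for armadillo and 1 for platypus.

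Of the 8 HOXC members listed in dog, 5 stood at 0, namely HOXC8 and HOXC10 to HOXC13. HOXC4 had 128 reads or 9.39 CPM in dog (7.84 to 11.2), and it was listed in no other table. HOXC10, a gene of the lumbar and hindlimb level, had 0 reads in dog, 20 reads or 1.51 CPM in armadillo (0.924 to 2.34) and 39 reads or 17.4 CPM in platypus (12.4 to 23.8). It was thus 11.5-fold higher in platypus than in armadillo (6.54 to 20.8). HOXC6 stood at 1.69 CPM in dog (1.07 to 2.53), 0.832 in armadillo (0.415 to 1.49) and 8.47 in platypus (5.10 to 13.2). HOXC8 had 1 read in armadillo and 6 in platypus, and HOXC5 had 2 reads in dog and 29 in armadillo.

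HOXD3, HOXD8 and HOXD10 had their highest CPM in armadillo. HOXD10, a gene of the lumbar level and the hindlimb, had 80 reads or 5.87 CPM in dog (4.66 to 7.31), 491 reads or 37.1 CPM in armadillo (33.9 to 40.6) and 27 reads or 12.03 CPM in platypus (7.93 to 17.5). HOXD3 had 13 reads or 0.954 CPM in dog (0.508 to 1.63), 378 reads or 28.6 CPM in armadillo (25.8 to 31.6) and 13 reads or 5.79 CPM in platypus (3.09 to 9.91). The armadillo level of HOXD3 was 30.0-fold that of dog (17.3 to 56.8) and 4.94-fold that of platypus (2.85 to 9.36). HOXD8 had 56 reads or 4.11 CPM in dog (3.10 to 5.34) and 317 reads or 24.0 CPM in armadillo (21.4 to 26.8). HOXD4 was compared only between dog and platypus and was higher in platypus, with 0.734 CPM in dog (0.352 to 1.35) and 12.5 in platypus (8.29 to 18.0). HOXD9 (3.16 CPM) and HOXD11 (6 reads) were listed in dog only, and HOXD1 had 2 reads in armadillo.

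The 13 members listed in all 3 tables allow the clusters to be compared over the same genes. The 4 HOXA genes summed to 84.0 CPM in dog (79.2 to 89.0), 17.9 in armadillo (15.7 to 20.4) and 117 in platypus (103 to 132). The 3 HOXB genes summed to 16.3 CPM (14.2 to 18.6), 11.0 (9.33 to 12.99) and 72.2 (61.5 to 84.2), in the same order of species. The 3 HOXC genes summed to 1.69 CPM (1.07 to 2.53), 2.42 (1.66 to 3.42) and 28.5 (21.97 to 36.4). The 3 HOXD genes went another way, with 6.83 CPM in dog (5.51 to 8.36), 66.4 in armadillo (62.1 to 71.0) and 17.8 in platypus (12.7 to 24.3). Of the reads of these 13 genes, HOXD took 67.9% in armadillo (65.3 to 70.4), 6.28% in dog (5.09 to 7.63) and 7.58% in platypus (5.47 to 10.2). HOXA took 77.2% in dog (74.97 to 79.3), 49.6% in platypus (45.3 to 54.0) and 18.3% in armadillo (16.3 to 20.5). Reads were not corrected for gene length, so these shares also depend on the gene models of each species.

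**Figure D2:**
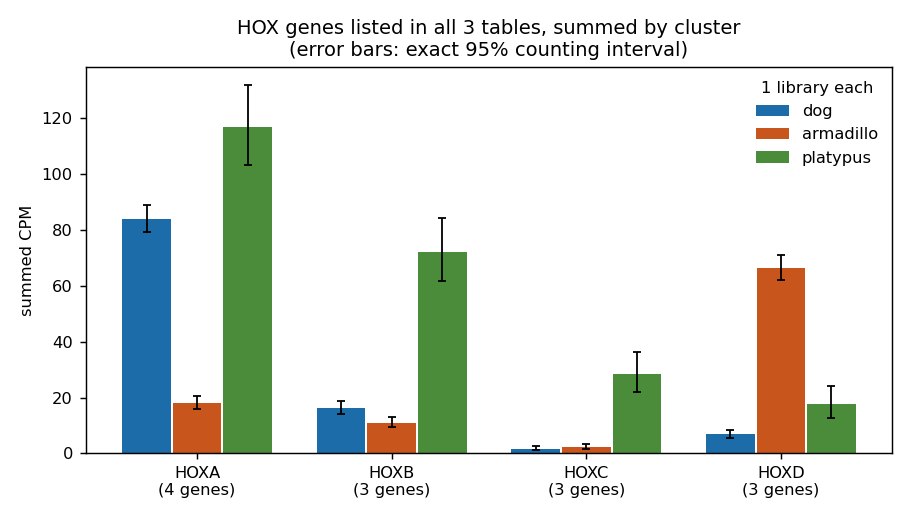
Summed CPM of the 13 HOX genes listed in all 3 tables, by cluster, with 1 bar per library and exact 95% counting intervals as error bars. The HOXD bar of armadillo stands at 66.4, above dog (6.83) and platypus (17.8), while the HOXA bar of armadillo (17.9) is the lowest of its cluster.

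Markers of tissue components also differed between the libraries. Over stromal markers found in all 3 tables (LUM, COL3A1 and POSTN) the summed level was 632 CPM for dog, 8718 for armadillo and 1552 for platypus. COL3A1 (535, 7623 and 294 CPM) and POSTN (5.28, 762 and 8.02) were highest in armadillo. LUM went another way, at 91.4 CPM for dog, 333 for armadillo and 1250 for platypus, and DCN stood at 1668 in armadillo and 5099 in platypus. All listed stromal markers summed to 632 CPM over 3 genes in dog, 27847 over 9 in armadillo and 8567 over 9 in platypus. The smooth muscle markers MYH11 and SYNM summed to 97.2 CPM for dog, 12239 for armadillo and 287 for platypus, and the endothelial markers ESAM and PLVAP to 77.1, 7713 and 0. Other smooth muscle markers were high in platypus, with ACTA2 at 11301 CPM against 161 in armadillo and CNN1 at 1148 against 0.220 in dog. All listed markers of smooth muscle summed to 141 CPM over 5 genes in dog, 26560 over 5 in armadillo and 16674 over 8 in platypus. ESAM and PLVAP are each listed at 0 in platypus, where 5 of 7 listed endothelial markers stood at 0. CDH5, of the same list, had 45 reads or 20.1 CPM in platypus and 31.0 CPM in dog. Epithelial markers (EPCAM, KRT7, ESRP1 and ST14) summed to 2599.6 CPM for dog, 558 for armadillo and 25.9 for platypus. Most of the platypus sum came from ESRP1, an epithelial splicing factor, at 23.2 CPM (52 reads) against 7.19 in armadillo and 58.7 in dog. KRT7, a defining epithelial keratin, was at 2.23 CPM in platypus (5 reads), and ST14 and CLDN3 stood at 0 there. The part of these components in the HOX levels was not tested. In such bulk libraries fewer cells of a type and less RNA per cell cannot be told apart. Platypus counts are also the thinnest, since 1 read is worth 0.446 CPM there against 0.0734 in dog and 0.0757 in armadillo.

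Each pair of species was compared to describe which HOX genes differed between these endometria. A gene was counted as different where log2((CPM + 1)/(CPM + 1)) reached 2 in size, that is 4-fold, and the higher library had at least 5 CPM. The same rule was applied to all symbols shared by each pair of tables as background. Each library enters 2 of the 3 pairs, so the pairs are not independent of each other.

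Between dog and armadillo, which shared 18 members, 9 reached 5 CPM in at least 1 library. The genes HOXA3, HOXA5 and HOXB6 were higher in dog, and HOXD3, HOXD8 and HOXD10 were higher in armadillo. These are 3 of 18 (16.7%, against 12.6% of 8908 genes) and 3 of 18 (16.7%, against 13.3%), shares near the background. All 5 shared HOXA genes had the higher CPM in dog, with intervals of the ratio that excluded 1 when scaled by library totals. All 4 shared HOXD genes had the higher CPM in armadillo, HOXD12 against a listed 0. Directions and intervals were not counted over all shared genes, so no background share stands beside these counts by cluster. Ratios for the called genes were 6.12-fold for HOXA3 (4.29 to 8.95) and 5.92-fold for HOXB6 (4.39 to 8.12) in favour of dog. They were 6.33-fold for HOXD10 (4.99 to 8.12) and 5.84-fold for HOXD8 (4.38 to 7.90) in favour of armadillo. HOXA7 (1.48-fold, 1.12 to 1.96) and HOXB7 (1.48-fold, 1.19 to 1.84) were only a little higher in dog, and scaled by median of ratios their intervals included 1 (0.893 to 1.57 for HOXA7 and 0.949 to 1.47 for HOXB7). The median log2 difference of dog over armadillo was 0.47 over the 18 members and 0.00 over all shared genes. With the libraries scaled by median of ratios instead of totals, HOXA5 was the only member left past the limits in favour of dog. The ratios of HOXA3 and HOXB6 were then 4.89 and 4.73, still above 4 as plain ratios and below the limit once 1 CPM is added.

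Between dog and platypus, which shared 22 members, 12 reached 5 CPM and 6 stood at 0 in both. HOXB5, HOXB7, HOXB8, HOXC10 and HOXD4 were higher in platypus, 5 of 22 or 22.7% against 9.91% of 9073 genes. HOXA7 alone was higher in dog, 1 of 22 or 4.55% against 32.0%, and its platypus value is a listed 0. The ratio was 9.36-fold for HOXB8 (7.31 to 12.02), 6.55-fold for HOXB5 (4.39 to 9.78) and 17.0-fold for HOXD4 (8.02 to 39.2). HOXA5 differed by 1.60-fold (1.38 to 1.86), and HOXD10 by 2.05-fold (1.27 to 3.21), both higher in platypus and below the limit. For HOXA6 the ratio of platypus over dog was 1.33 with an interval of 0.827 to 2.07 that included 1. Of the 12 members with reads in both libraries, 9 had an interval above 1 in favour of platypus and 0 in favour of dog. This leaves out the 4 members at 0 in only 1 library, HOXA2 and HOXA7 in platypus and HOXC8 and HOXC10 in dog. Intervals were not counted over all shared genes for any pair, so no background share stands beside such counts. The median log2 difference of dog over platypus was -0.56 over the members and 0.61 over all shared genes.

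Between armadillo and platypus, which shared 14 members, 9 reached 5 CPM. HOXA5, HOXB7, HOXC6 and HOXC10 were higher in platypus, 4 of 14 or 28.6% against 11.0% of 7296 genes. HOXA7 and HOXD3 were higher in armadillo, 2 of 14 or 14.3% against 36.1%, and HOXA7 was listed at 0 in platypus. HOXC6 was 10.2-fold higher in platypus (4.60 to 23.7), on 11 reads in armadillo and 19 in platypus. HOXD10 was 3.09-fold higher in armadillo (2.10 to 4.73), below the limit on the log2 scale used. HOXD3 passed the limits with totals and was no longer past them with either of the other scalings, where its ratio of armadillo over platypus was 4.10 and 3.96. The median log2 difference of armadillo over platypus was -1.13 over the members and 1.06 over all shared genes.

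**Figure D3:**
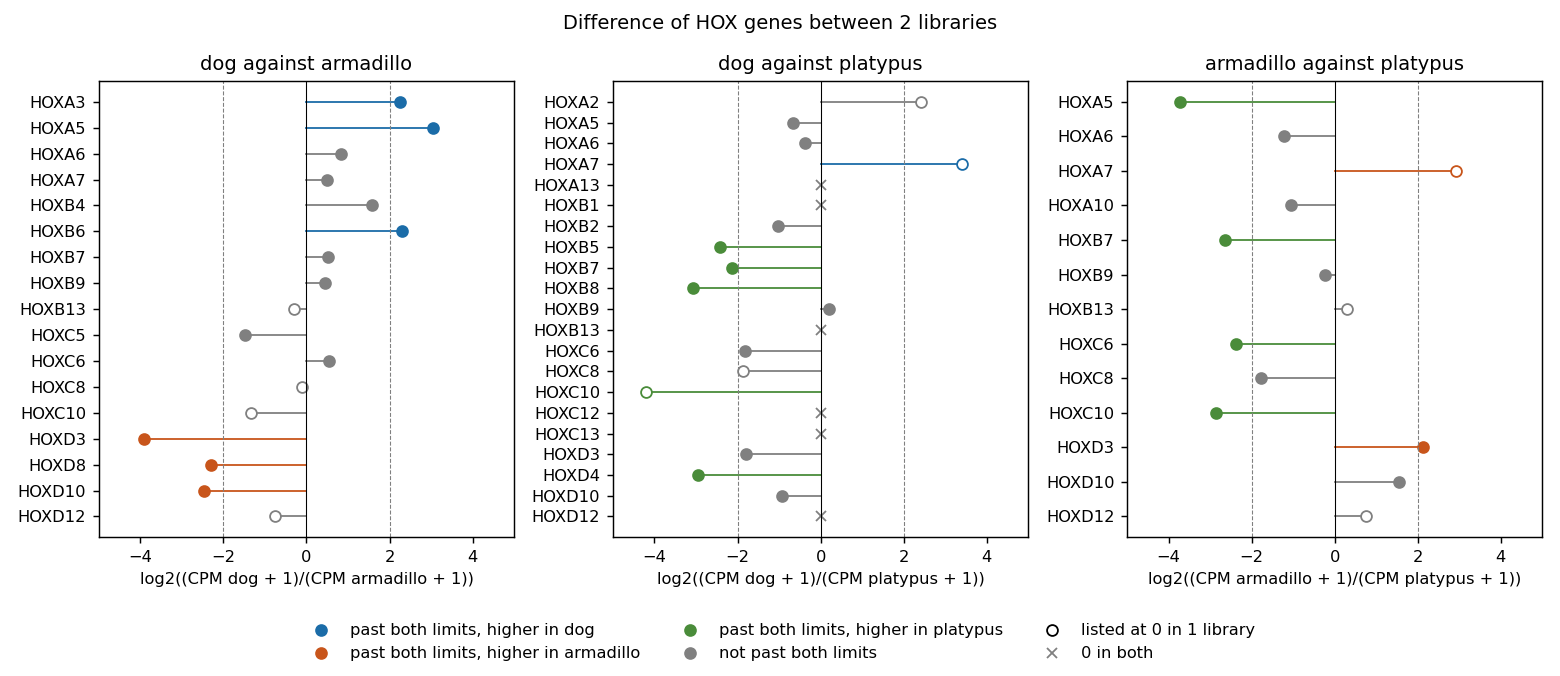
Log2 difference of CPM, with 1 CPM added, for HOX genes listed in both tables of a pair. Dashed lines mark 4-fold, coloured points passed that limit with at least 5 CPM in the higher library, and open points are listed at 0 in 1 library. HOXA and HOXD genes lie on opposite sides between dog and armadillo (HOXA5 at 3.05, HOXD3 at -3.92).

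The ranking of the members was alike in the 3 libraries only in part. Spearman's rho of CPM was 0.62 over 18 members between dog and armadillo, 0.61 over 22 between dog and platypus and 0.62 over 14 between armadillo and platypus. Over all shared genes it was 0.63, 0.46 and 0.38. Of the 22 members of dog and platypus, 6 stood at 0 in both libraries and so share the lowest rank in each, which raises rho. Genes at 0 in both were also kept among all shared genes, and their number was not counted. These are descriptions across genes, which are not independent replicates and which share gene length and library depth.

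Levels can be compared between genes only per length, which the dog table allows. Read count divided by the deposited relative abundance gave whole gene lengths, within 0.1 bases, for 100% of 5644 genes with more than 500 reads, once multiplied by a constant chosen to make them whole. HOX gene models of dog were between 560 and 1793 bases long. As CPM per kb of gene length, HOXA5 led with 48.0 (44.8 to 51.3), followed by HOXB6 with 33.8 (30.2 to 37.8) and HOXB7 with 21.99 (19.1 to 25.1). The intervals of HOXA5 and HOXB6 do not overlap, nor do those of HOXB6 and HOXB7. HOXA7 (15.2, 12.7 to 18.0), HOXA11 (12.9, 11.0 to 15.1), HOXA3 (12.6, 11.0 to 14.3) and HOXC4 (11.8, 9.86 to 14.1) came next, and their intervals overlap each other. The median of the 15084 dog genes with reads was 12.6 on this scale, and 5 of the 23 HOX genes with reads lay above it. HOXA11 thus stood at the 50.4th percentile of dog genes with reads and HOXA5 at the 77.8th.

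Along the clusters, the length-scaled dog levels were highest in the middle. Groups 4 to 8 held 78.0% of the summed level over 14 listed members, groups 1 to 3 held 11.6% over 6, and groups 9 to 13 held 10.5% over 12. In HOXA the highest level was at HOXA5, with 3.27 for HOXA2 and 12.6 for HOXA3 before it. After it stood 9.69 for HOXA6, 15.2 for HOXA7 and 12.9 for HOXA11, so the levels did not fall step by step, and HOXA4, HOXA9 and HOXA10 were not in the dog table. In HOXB the highest level was at HOXB6, with 10.9 for HOXB8 and 0.610 for HOXB9. In HOXD the highest level was at HOXD8 (6.85), followed by HOXD9 (5.64), HOXD10 (3.27) and HOXD11 (0.493). By cluster, HOXA held 47.4% of the summed level, HOXB 38.0%, HOXD 8.17% and HOXC 6.49%.

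**Figure D4:**
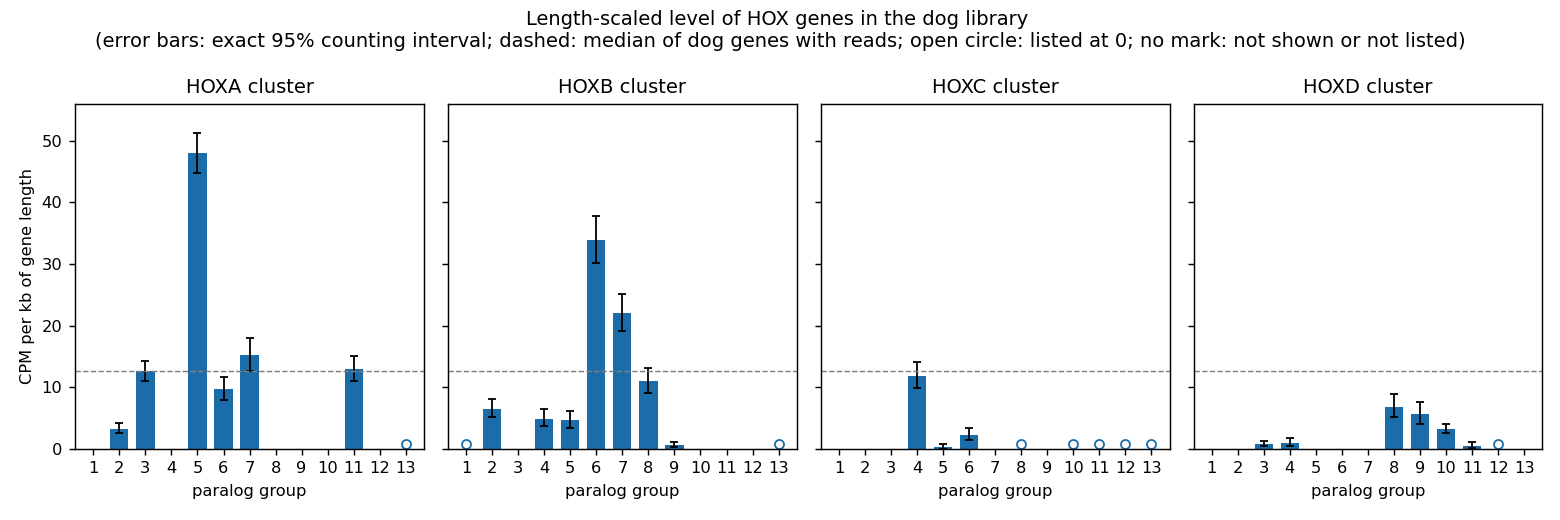
CPM per kb of gene length for HOX genes listed in the dog table, by cluster and paralog group, with exact 95% counting intervals. The dashed line is the median of dog genes with reads (12.6), open circles are genes listed at 0, and groups without a mark are not shown or not listed. The tallest bars are HOXA5 at 48.0 and HOXB6 at 33.8.

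As a share of HOX reads without length scaling, groups 9 to 13 took 10.6% in dog (9.49 to 11.8), 37.1% in armadillo (35.0 to 39.3) and 13.6% in platypus (11.6 to 15.8). In armadillo 491 of these 715 reads came from HOXD10 and 189 from HOXA10. In platypus 69 of 145 came from HOXA10, 39 from HOXC10 and 27 from HOXD10. In dog 157 of 295 came from HOXA11, 80 from HOXD10 and 43 from HOXD9. Each share therefore rests on which of these genes the table lists, and the platypus reads of Q6B6N7_ORNAN enter none of them. Paralog group 10 summed to 53.0 CPM in armadillo and 60.2 in platypus over HOXA10, HOXC10 and HOXD10, and to 5.87 in dog, where HOXA10 was not listed and HOXC10 was at 0.

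HOX proteins bind DNA with cofactors of the PBX, MEIS and PKNOX families, and these were detected in every library. At 5 CPM or more stood 7 of 8 listed cofactors in dog, 7 of 7 in armadillo and 7 of 7 in platypus. Of all listed genes 52.2%, 72.3% and 37.9% did, in the same order of species. PBX3 was at 27.7 CPM for dog, 157 for armadillo and 19.6 for platypus, and MEIS2 at 8.44, 127 and 14.3. Both passed the 4-fold limit in favour of armadillo over dog (2 of 6 shared cofactors, against 13.3% of all genes) and over platypus (2 of 5, against 36.1%). MEIS1 was less uneven, at 18.5 CPM for dog, 50.5 for armadillo and 57.5 for platypus. Between dog and platypus 1 of 6 was higher in platypus (against 9.91% of all genes), PBX4, with 1 read in dog and 18 in platypus. In favour of dog 0 of 6 passed the limits, against 32.0% of all genes.

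Polycomb proteins keep HOX genes silent and proteins of the MLL complexes keep them active. Of the Polycomb genes shared by dog and armadillo, 3 of 10 were higher in dog and 2 in armadillo, against 12.6% and 13.3% of all genes. EZH2, the methyltransferase typical of dividing cells, stood at 91.4 CPM for dog, 7.49 for armadillo and 29.0 for platypus. Its relative EZH1, typical of resting cells, stood at 12.04, 101 and 11.6. Against platypus 2 of 13 were higher in dog (32.0% of all genes were) and 0 lower (against 9.91%), while 3 of 11 were higher in armadillo (against 36.1%) and 2 lower (against 11.0%). RBBP7, called higher than in platypus in both pairs, had 1 read in platypus, against 400 CPM in dog and 319 in armadillo. RNF2, the other call in favour of dog, had 8 reads in platypus. Of the activators 1 of 7 was higher in dog than in armadillo (CTCF, 260 against 52.4 CPM), and 2 of 6 in dog and 2 of 7 in armadillo were higher than in platypus, against 12.6%, 32.0% and 36.1% of all genes. KDM6B was among those called in each pair with platypus, where it was listed at 0. MLL, the methyltransferase gene most tied to HOX upkeep, stood at 76.5 CPM for dog, 128 for armadillo and 38.3 for platypus and passed the limits in no pair.

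Genes next to the clusters that passed the limits against platypus were all higher in platypus. Of these neighbours 3 of 10 were higher in platypus than in dog (against 9.91% of all genes) and 2 of 6 higher in platypus than in armadillo (against 11.0%). In either pair 0 were lower in platypus, while of all genes 32.0% were higher in dog and 36.1% higher in armadillo. SKAP2 was called in each of these pairs. The median log2 difference over the shared neighbours was -0.19 for dog over platypus and 0.20 for armadillo over platypus, against 0.61 and 1.06 over all shared genes. Between the eutherians 1 of 10 was higher in dog and 1 in armadillo, against 12.6% and 13.3%. SKAP2, beside the HOXA cluster, stood at 29.3 CPM for dog, 15.7 for armadillo and 274 for platypus, whereas EVX1, beside HOXA13, was at 0 in dog and platypus. MTX2, beside the HOXD cluster, stood at 73.9, 18.8 and 292. Of the Müllerian genes, 2 of 7 were higher in dog (against 12.6% of all genes) and 1 in armadillo (against 13.3%) between the eutherians. Of these genes 1 of 7 was higher in dog than in platypus (against 32.0%) and 1 lower (against 9.91%), and 1 of 5 was higher in platypus than in armadillo (against 11.0%). NR2F2, a factor of the uterine stroma, stood at 178, 185 and 272 CPM in dog, armadillo and platypus and passed the limits in no pair. PAX2, a factor of the duct epithelium, stood at 131, 1.13 and 49.0.

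Among partners and targets of HOXA10 and HOXA11, FOXO1 stood at 66.0 CPM for dog, 61.3 for armadillo and 41.5 for platypus and passed the limits in no pair. EMX2, a gene that HOXA10 represses in human endometrium, stood at 24.95, 30.0 and 62.4 CPM. ITGB3, an integrin that HOXA10 activates there, stood at 254 CPM in dog and 360 in armadillo and was listed at 0 in platypus. IGFBP1, a secreted decidual protein, stood at 378 CPM in dog and 18.5 in armadillo and was also listed at 0 in platypus. Of this list 1 of 4 was higher in dog than in armadillo (against 12.6% of all genes). Those higher than in platypus were 2 of 5 in dog and 2 of 4 in armadillo, near the 32.0% and 36.1% of all genes, and all rest on a listed 0. ParaHox and caudal genes, relatives of the HOX genes that act in the gut and pancreas, had at most 2 reads in dog (CDX2) and 0 in the 4 listed platypus genes.

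By the same limits, the marker lists of other cell types split as follows. Of all genes, 12.6% were higher in dog and 13.3% in armadillo between these species. Against platypus 32.0% were higher in dog and 9.91% lower, and 36.1% were higher in armadillo and 11.0% lower. Between dog and armadillo, 4 of 4 epithelial markers passed the limits in favour of dog. Markers of stroma (2 of 3), smooth muscle (3 of 3), endothelium (2 of 2) and leukocytes (3 of 4) were higher in armadillo. Against platypus, dog was higher for 4 of 5 epithelial and 2 of 3 endothelial markers and lower for 1 of 3 stromal markers. Among 4 smooth muscle markers it was higher for 1 and lower for 3. Armadillo was higher than platypus for 3 of 6 epithelial, 5 of 8 stromal and 6 of 6 endothelial markers, and for 2 of 4 smooth muscle markers with 1 lower. The endothelial calls of dog and armadillo over platypus all rest on a listed 0 there, except FLT1 with 6 reads. Of the trophoblast markers 1 of 4 was higher in dog and 1 in armadillo between these species, and 2 of 6 in dog and 3 of 5 in armadillo were higher than in platypus. KRT7, which is also on the epithelial list, was the call in favour of dog over armadillo and 1 of the calls in each pair with platypus. The other calls of armadillo over platypus, TFAP2A and TFAP2C, rest on a listed 0, and 5 of 7 listed trophoblast markers stood at 0 in platypus. Among general cell genes B2M was higher in armadillo than in dog, 1 of 2 shared, and the 1 gene shared by armadillo and platypus did not pass the limits.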

How the data were processed

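Per the labels' protocols, column-purified RNA was DNase-treated and made into Illumina libraries. Bowtie is named in the submitters' processing notes. Not given in the sources used here are its version, the genome builds, the annotation, strandedness and the handling of reads that match several genes. Dog values are estimated counts, deposited by the authors as reads, which equal mapped bases divided by 34. Those not whole (516) were rounded. The scores deposited beside them (mapped bases and a relative abundance of unstated unit) served for checks and for gene length. The armadillo and platypus values are raw counts, also as the authors deposited them. Total lines were left out.

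Members were matched by upper-case symbol. Background genes were symbols that occur once in both tables, including 82 of 1343 dog accession names resolved through RefSeq. Level intervals are exact Poisson, shares exact binomial (Clopper-Pearson), and ratios exact conditional on both counts. They treat reads as independent molecules, which reads without identifiers are not. No p-value could be computed. The call rule was tested on simulated data. The members, 14 gene lists and limits were chosen with earlier results of these data known. The values of 1 member are not reported here, and it enters counts and sums only. Values are given for HOXA10, HOXA11 and every member at 5 CPM or more in any library. From the lists, genes of high level or known role are named, in part chosen after their values were seen. Python 3.11.15, numpy 2.4.6, scipy 1.17.1 and pandas 2.3.3 were used. Alternatives changed the scaling, pseudocount, fold limit, low-level limit, treatment of zeros, naming, and, for shares, the genes, groups and length scaling.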

Additional observations from a re-analysis of the deposited data

How the results depend on the processing

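No paired analysis was possible because each species has 1 library. Of 81 alternative values of the 12 counts and shares, 59 stayed within 1.5 times the count or within the counting interval and 22 moved. The 59 include values that could not move. These are the matching of UniProt entry names, 1 for each of the 12, since no such name was found. The dog share over genes with a dog length, not scaled, is another, since every dog HOX gene with reads has a length. Scaling by median of ratios left 1 member higher in dog than in armadillo (HOXA5) and 1 higher in armadillo than in platypus (HOXA7), and upper-quartile scaling also left 1 in the latter. These scalings moved the median log2 difference of all genes by -0.21 and -0.10 for dog over armadillo, -0.36 and -0.28 for dog over platypus and -0.18 and -0.22 for armadillo over platypus. None of the 27 ratios of members with reads in both libraries and at least 5 CPM changed sides under either scaling, which was added after the data were seen. None could have, since each scaling multiplies all ratios of a pair by the same factor and none lay close enough to 1. HOXB7, for example, went from 1.48 to 1.18 for dog over armadillo with median of ratios. With an 8-fold limit 1 member was higher in dog and 1 in armadillo between these species, 2 were higher in platypus than in dog, 0 were higher in armadillo than in platypus and 1 lower. With a 2-fold limit 8 were higher in platypus than in dog. A minimum of 2 CPM, or none, gave 2 members higher in dog than in platypus (HOXA2 joining HOXA7). Without genes listed at 0 there were 0 higher in dog than in platypus and 1 higher in armadillo than in platypus. At 5 CPM instead of 2 CPM 11 members were counted in dog and 7 in armadillo. The share of groups 9 to 13 was 6.01% in dog and 40.7% in armadillo over genes listed in all 3 tables, and groups 10 to 13 took 8.74% in dog. Per dog gene length it was 15.9% in armadillo and 1.88% in platypus over the 14 genes of each table with a dog length, HOXA10 and HOXC10 being among those without one. Over the same 14 genes without length scaling, an alternative added after the data were seen, it was 29.0% and 3.66%. Matching UniProt entry names added no gene. Depth limits platypus most, where 3 reads are 1.34 CPM.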
